A study of Saccharomyces cerevisiae with 46 samples.

Results

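The iron uptake genes of *Saccharomyces cerevisiae* were followed in RNA-seq of cells without Spt4 or depleted of Spt4 or Spt5, the subunits of an elongation factor of RNA polymerase II. The 10 genes were chosen by name and systematic identifier, out of 5574 genes in the deposited tables. They are *FET3* (YMR058W), *FTR1* (YER145C), *FRE1* (YLR214W), *SIT1* (YEL065W), *ARN1* (YHL040C), *ARN2* (YHL047C), *ENB1* (YOL158C), *FIT1* (YDR534C), *FIT2* (YOR382W) and *FIT3* (YOR383C). All 10 were listed in the table of *spt4Δ* and WT cells. 6 were listed in each of the anchor-away tables, from which *ARN2*, *FIT1*, *FIT2* and *FIT3* were absent and so could not be measured.

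In *spt4Δ* cells the *SPT4* gene was deleted from BY4741 with a 3xFLAG tag on *RPB3*, and the WT cells were BY4741 with the same tag (2 libraries each, untreated). The Spt4-AA cells carried tor1-1, fpr1Δ, *RPL13*-2xFKBP12, *SPT4*-FRB-eGFP and *RPB3*-3xFLAG and received rapamycin for 140 min, which tethers the FRB-tagged protein to a ribosomal protein that leaves the nucleus (2 libraries). The Spt5-AA cells carried the same alleles with *SPT5*-FRB-eGFP in place of the *SPT4* tag and received rapamycin for 180 min (2 libraries). The DMSO cells, treated for 120 min, were 1 library of each of these tagged strains, so the comparisons of Spt4-AA and of Spt5-AA shared both DMSO libraries. Below, DMSO replicate 1 is the library of the *SPT4*-FRB strain and DMSO replicate 2 that of the *SPT5*-FRB strain. Rapamycin, the depletion and the time of treatment changed together in them and cannot be told apart. In the anchor-away comparisons the strain also differed in 1 of 2 DMSO libraries. The labels do not say which libraries came from separate cultures, so the p-values measure only the spread between these libraries.

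The iron regulon of budding yeast is switched on by the transcription factors Aft1 and Aft2 when iron is scarce. Reduced iron enters through a plasma membrane complex of an oxidase and a permease, while iron held by siderophores, small iron chelators made by other microbes, enters through transporters of the ARN family. Cell wall mannoproteins help to retain the siderophores near the cell.

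The Aft factors bind sequences with the core CACCC, so the 500 bases before each start codon in the RefSeq R64 genome were searched on both strands for TGCACCC and for the shorter motifs GCACCC and CACCC that lie within it. TGCACCC stood before 9 of the 10 genes, with 16 matches in all, against 140 of 6000 genes of the annotation (2.333%). GCACCC stood before 9 of the 10 genes and 7.617% of all genes, and CACCC before all 10 and 33.45% of all genes. *FRE1* was the gene without TGCACCC or GCACCC. A match is a description of the sequence and not evidence of binding in these cells. The following windows of 30 bases are shown because they hold the match nearest to the start codon of each gene measured in all 3 tables, and those of *FIT1* and *FIT3* because their letters around the motif are alike. Each is written 5′ to 3′ on the coding strand of its gene, with the motif in capitals (GGGTGCA is TGCACCC on the opposite strand, and for *FRE1* the capitals mark CACCC).
FET3 chrXIII:388560-388589: atcttcaaaagTGCACCCatttgcaggtgc
FTR1 chrV:461897-461926: gcgtagatgaaTGCACCCgatttctaagtt
FRE1 chrXII:568334-568363: gatttactaataCACCCaatttctaatatc
SIT1 chrV:27458-27487: aacacatttgaGGGTGCAatctggttcgtc
ARN1 chrVIII:21213-21242: atttatcaaaaTGCACCCataaaagcaggt
ENB1 chrXV:21430-21459: cggcttacaatTGCACCCctctgtggcttt
FIT1 chrIV:1505064-1505093: gttctaggaaaGGGTGCAaaaaaatgaata
FIT3 chrXV:1061221-1061250: attctaggaaaGGGTGCAaaaaaatggggt

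The first base of the motif lay 251 bases before the start codon in *FET3*, 175 in *FTR1*, 221 in *FRE1*, 188 in *SIT1*, 260 in *ARN1*, 137 in *ENB1*, 182 in *FIT1* and 184 in *FIT3*. *FIT2* had the most TGCACCC matches of the 10 genes, 4. The genes are single coding exons in R64 that overlap no other annotated gene, and 7 of the 10 lie within 32 kb of a chromosome end, a distance set to take in the outermost of them (*FIT2*, 31.3 kb), against 419 of 6002 protein-coding genes (6.981%). *FET3* (chrXIII:388822-390732, plus strand), *FTR1* (chrV:460526-461740, minus strand) and *FRE1* (chrXII:568567-570627, plus strand) lie farther in. *SIT1* occupies chrV:27657-29543 on the plus strand, *ARN1* chrVIII:19088-20971, *ARN2* chrVIII:8351-10213 and *ENB1* chrXV:19491-21311, all 3 on the minus strand. The mannoprotein genes are *FIT1* (chrIV:1503314-1504900, minus strand), *FIT2* (chrXV:1059531-1059992, plus strand) and *FIT3* (chrXV:1060441-1061055, minus strand). *FIT1* and *FIT3* share 74.0% of 404 aligned coding bases, with at least 25 identical bases in a row, and *ARN1* and *ARN2* share 64.4% of 1332. How the counting divided reads between such copies is not given in the sources used here, so the values of *FIT1* and *FIT3* are the less certain ones.

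The libraries held 798455 to 6814227 reads on listed genes. The deposited values differed between libraries by a common factor, with the median gene of *spt4Δ* replicate 1 at 2.16 times the mean of its table, replicate 2 at 0.835 and both WT libraries at 0.750. The median gene stood at 0.499 and 0.556 in Spt5-AA against 1.86 and 1.97 in DMSO. Each library was therefore rescaled so that its median gene stood at 1, and higher or lower below means relative to the median gene of the same table. *SPT4* had 0 and 4 reads in *spt4Δ* libraries against 531 and 250 in WT, and *FPR1*, deleted in the anchor-away strains, had 1 to 17 reads there and 865 to 2919 in *spt4Δ* and WT cells. The 4 MATa-specific genes checked were all listed and summed to 765 to 5069 reads per library, while the 3 MATalpha-specific genes summed to 9 to 37 reads in the *spt4Δ* and WT libraries.

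**Figure D1:**
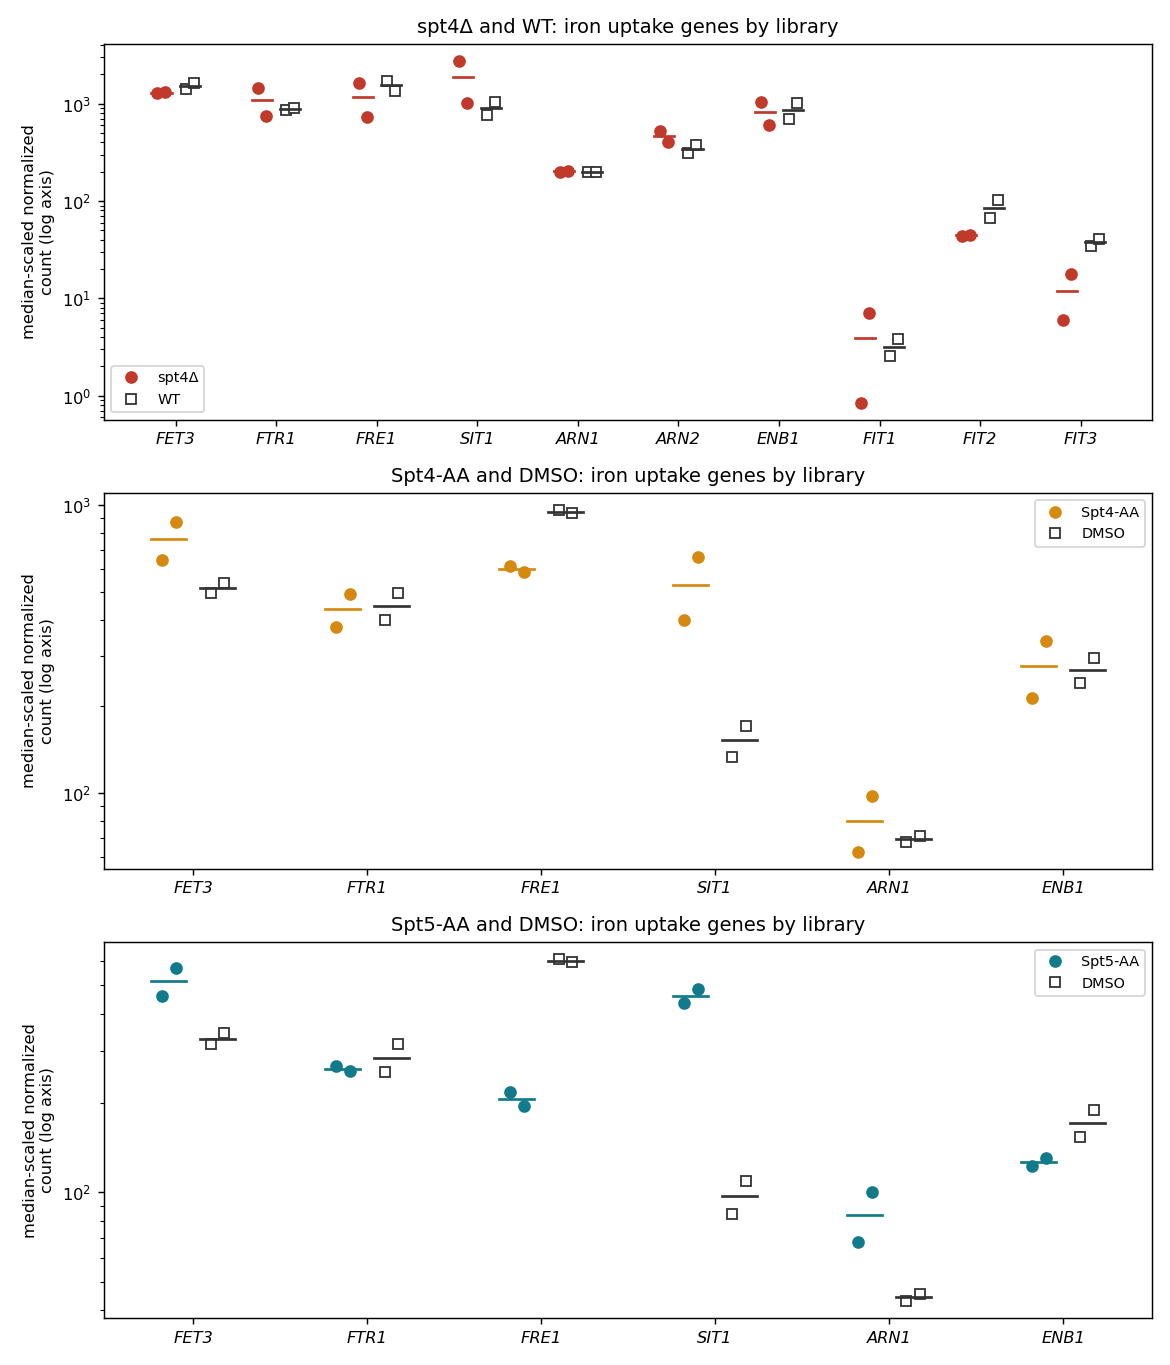
Median-scaled normalized counts of the iron uptake genes in each library, on a log axis that differs between panels. Filled circles are the mutant or depleted libraries, open squares the WT or DMSO libraries, each in the order replicate 1, replicate 2, and short lines are the means of 2. *SIT1* of Spt5-AA stood at 434 and 483, above 84.7 and 109.6 in DMSO, and in *spt4Δ* its replicates stood at 2744 and 1008.

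In *spt4Δ* cells no iron uptake gene passed the test, and the replicates of the mutant differed from each other at several of them. 9 of the 10 genes had a mean of at least 10 scaled counts and were tested with limma. 0 of the 9 were called at an adjusted p under 0.05, where 1.04% of all 5278 genes tested were called (36 higher, 0.682%, and 19 lower, 0.36%, or 15 and 1 with the scaling as deposited and 12 and 2 with the same total in every library). With unadjusted p under 0.05 there were 3 of the 9 genes, *FIT2*, *FIT3* and *SIT1*, and 565 of all genes, and edgeR and DESeq2 on the recovered reads called none of the 9 either. The median log2 change of the 9 was -0.09, against -0.01 over all genes tested. 4 of the 9 genes had no overlap between *spt4Δ* and WT libraries, where 40.5% of all genes had none.

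The oxidase gene *FET3*, whose product is a multicopper ferroxidase, had 1281 and 1309 scaled counts in *spt4Δ* libraries and 1400.0 and 1634 in WT libraries. Both *spt4Δ* values lay below both WT values, and the log2 fold change was -0.22 ± 0.23 (SE, n = 2 libraries in each group, adjusted p = 0.813). *FTR1*, the permease that works with Fet3, had 1466 and 744 in *spt4Δ* and 859 and 905 in WT. Its *spt4Δ* libraries lay on either side of the WT pair, with a log2 fold change of 0.24 ± 0.30 (SE). *FRE1*, a cell surface reductase for iron and copper, had 1638 and 725 in *spt4Δ* and 1718 and 1365.5 in WT. Replicate 1 lay within the WT range and replicate 2 below it.

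Among the siderophore transporters, *SIT1*, which takes up ferrioxamine B, had 2744 and 1008 scaled counts in *spt4Δ* libraries and 769.9 and 1039 in WT libraries. Replicate 1 stood far above the other 3 libraries, which overlapped, and the log2 fold change was 0.89 ± 0.39 (SE, 95% interval 0.03 to 1.76, limma adjusted p = 0.447). *ARN2*, the transporter of triacetylfusarinine C, had 527 and 399.6 in *spt4Δ* and 309.5 and 376 in WT, a log2 fold change of 0.43 ± 0.24 (SE, adjusted p = 0.601) with no overlap. *ARN1*, a ferrichrome transporter, had 197 and 206 in *spt4Δ* and 200.1 and 199 in WT, and its log2 fold change of 0.01 had a 95% interval of -0.46 to 0.49. *ENB1*, the enterobactin transporter, had 1051 and 607.5 in *spt4Δ* and 699.6 and 1028 in WT. The WT pair lay between the *spt4Δ* libraries.

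The mannoprotein gene *FIT3* had 5.96 and 17.6 scaled counts in *spt4Δ* libraries, from 7 and 25 reads, and 34.8 and 40.3 in WT libraries, from 41 and 21 reads. All *spt4Δ* values lay below all WT values. Its log2 fold change of -1.76 ± 0.53 (SE, 95% interval -2.92 to -0.59) was number 8 from the lowest of 5278 genes, and the adjusted p was 0.206. *FIT2* had 44.2 and 45.1 in *spt4Δ* and 67.0 and 104 in WT, also without overlap, with a log2 fold change of -0.88 ± 0.31 (SE, adjusted p = 0.293). *FIT1* was not tested, since it had 1 and 10 reads in *spt4Δ* and 3 and 2 reads in WT. No difference in *FIT1* was detectable at this depth.

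The 2 *spt4Δ* libraries gave different answers when each was set against WT alone, in fits that assume the lone library varies like the WT pair. Without replicate 2, 5 of the 9 genes were called by limma, namely *SIT1* (log2 fold change 1.62), *FTR1* (0.73) and *ARN2* (0.63) higher and *FIT2* (-0.90) and *FIT3* (-2.47) lower. Without replicate 1, whose deposited values stood apart from the rest, 1 was called, *FRE1* at -1.08 (adjusted p = 2.35e-04), *SIT1* was at 0.17 and *FTR1* at -0.25. These fits called 1586 and 491 of all genes, against 55 with both replicates.

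In Spt4-AA cells *SIT1* was higher and *FRE1* lower than in DMSO cells, and the other 4 genes measured did not pass the test. These 2 of 6 compare with 8.95% of all 4684 genes tested that were called (221 higher, 4.72%, and 198 lower, 4.23%, or 142 and 880 with the scaling as deposited and 489 and 182 with the same total in every library). 3 of the 6 genes had no overlap between Spt4-AA and DMSO libraries, where 56.3% of all genes had none. The median log2 change of the 6 was 0.09, against 0.01 over all genes tested.

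*SIT1* had 399.7 and 658 scaled counts in Spt4-AA libraries and 133 and 172 in DMSO libraries. Both Spt4-AA values lay above both DMSO values, and replicate 2 was the higher of the Spt4-AA pair. The log2 fold change was 1.75 ± 0.26 (SE, 95% interval 1.15 to 2.36, limma adjusted p = 0.0113), number 25 from the highest of all genes tested. *SIT1* was called in all 12 alternatives run for Spt4-AA, with log2 fold changes of 1.40 to 2.11.

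*FRE1* had 613 and 585 scaled counts in Spt4-AA libraries and 959 and 935 in DMSO libraries, and fell by 0.66 ± 0.15 on the log2 scale (SE, limma adjusted p = 0.0366). The pairs were narrow and did not overlap. The call was lost with every library scaled to the same total (adjusted p = 0.0517) and without either DMSO library (adjusted p = 0.417 without replicate 1 and 0.394 without replicate 2), while the change stayed between -0.95 and -0.53 over the 12 alternatives.

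*FET3* had 647 and 876 in Spt4-AA and 496 and 538 in DMSO, without overlap, and its log2 fold change of 0.54 ± 0.19 (SE) had an adjusted p of 0.112. With the same total in every library it was 0.67 with an adjusted p of 0.0196, and it was called without either Spt4-AA library. *FTR1* had 378 and 493 in Spt4-AA and 399 and 494 in DMSO, a log2 fold change of -0.04 (95% interval -0.49 to 0.41), and the difference from *FET3*, its partner in the uptake complex, was not tested. *ARN1* had 62.7 and 98.1 in Spt4-AA and 67.8 and 71.2 in DMSO, and *ENB1* had 215 and 336 in Spt4-AA and 241 and 296 in DMSO. In both genes the Spt4-AA libraries lay on either side of the DMSO pair.

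In Spt5-AA cells *SIT1*, *ARN1* and *FET3* were higher and *FRE1* and *ENB1* lower than in DMSO cells relative to the median gene. With the scaling as deposited all 6 genes were called, *SIT1* higher and the other 5, with *FET3*, *ARN1* and *FTR1* among them, lower. With 54.4% of all 4665 genes tested called (1223 higher and 1315 lower, or 114 and 4219 with the scaling as deposited), the 5 called of 6 stand against a background in which most genes moved. 5 of the 6 genes had no overlap between the groups, where 77.0% of all genes had none, and the median log2 change of the 6 was 0.26, against -0.000293 over all genes tested.

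*SIT1* had 434 and 483 scaled counts in Spt5-AA libraries and 84.7 and 109.6 in DMSO libraries. The log2 fold change was 2.24 ± 0.16 (SE, 95% interval 1.90 to 2.58, limma adjusted p = 2.13e-08), number 134 from the highest. It was called higher in all 12 alternatives. With the scaling as deposited, where the median gene shifted by -1.83, it was 0.39 (adjusted p = 0.0452) and the deposited values were 216.4 and 269 in Spt5-AA against 158 and 215.5 in DMSO, so that the pairs nearly met.

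*FRE1* had 218 and 195 scaled counts in Spt5-AA libraries and 609 and 597 in DMSO libraries, and fell by 1.55 ± 0.14 on the log2 scale (SE, limma adjusted p = 2.07e-07), number 180 from the lowest. It was called lower in all 12 alternatives, with values of -3.40 to -1.43. *FRE1* and *SIT1* therefore moved in opposite directions in both depletions.

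*FET3* had 459 and 569 in Spt5-AA and 315 and 344 in DMSO, a log2 fold change of 0.63 ± 0.14 (SE, limma adjusted p = 0.00167) that turned to -1.22 with the scaling as deposited. *ARN1* had 68.1 and 100.2 in Spt5-AA, from 40 and 91 reads, and 43.1 and 45.5 in DMSO, a log2 fold change of 0.88 ± 0.22 (SE, adjusted p = 0.00348) that turned to -0.95 with that scaling. *FTR1* had 265 and 256 in Spt5-AA and 253 and 316 in DMSO. The Spt5-AA pair lay inside the DMSO range, and the log2 fold change of -0.12 had a 95% interval of -0.43 to 0.20. With the scaling as deposited it was -1.97 and was called lower (limma adjusted p = 7.03e-12).

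*ENB1* had 123 and 131 in Spt5-AA and 153 and 189 in DMSO, and fell by 0.42 ± 0.16 on the log2 scale (SE, limma adjusted p = 0.0396). The call was lost with the same total in every library (adjusted p = 0.133), with DESeq2 (0.172) and without either DMSO library (0.0539 without replicate 1 and 0.419 without replicate 2). A smaller share of cells expressing a gene and less RNA of it per cell cannot be told apart in these bulk libraries.

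**Figure D2:**
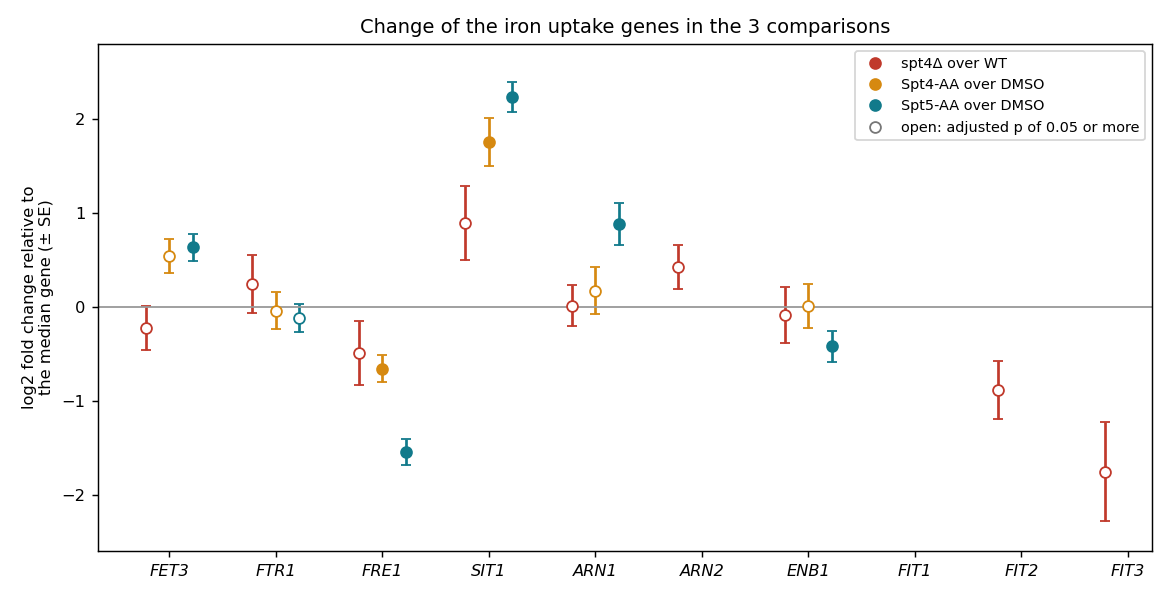
Log2 fold change of each iron uptake gene relative to the median gene, with its standard error, in *spt4Δ* over WT, Spt4-AA over DMSO and Spt5-AA over DMSO (2 libraries in each group). Filled points passed the limma test. *SIT1* was at 0.89, 1.75 and 2.24 and *FRE1* at -0.49, -0.66 and -1.55, while *FET3* and *ARN1* of Spt5-AA turned to -1.22 and -0.95 with the scaling as deposited.

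Set side by side over *spt4Δ*, Spt4-AA and Spt5-AA, *SIT1* had log2 fold changes of 0.89, 1.75 and 2.24, *FRE1* of -0.49, -0.66 and -1.55, *FET3* of -0.22, 0.54 and 0.63, *ARN1* of 0.01, 0.17 and 0.88, *ENB1* of -0.09, 0.01 and -0.42, and *FTR1* of 0.24, -0.04 and -0.12. Differences between the comparisons were not tested, and the anchor-away ones share their DMSO libraries. In Spt4-AA and Spt5-AA, genes called higher and genes called lower stood side by side in the set, and in *spt4Δ* none of the 6 was called.

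**Figure D3:**
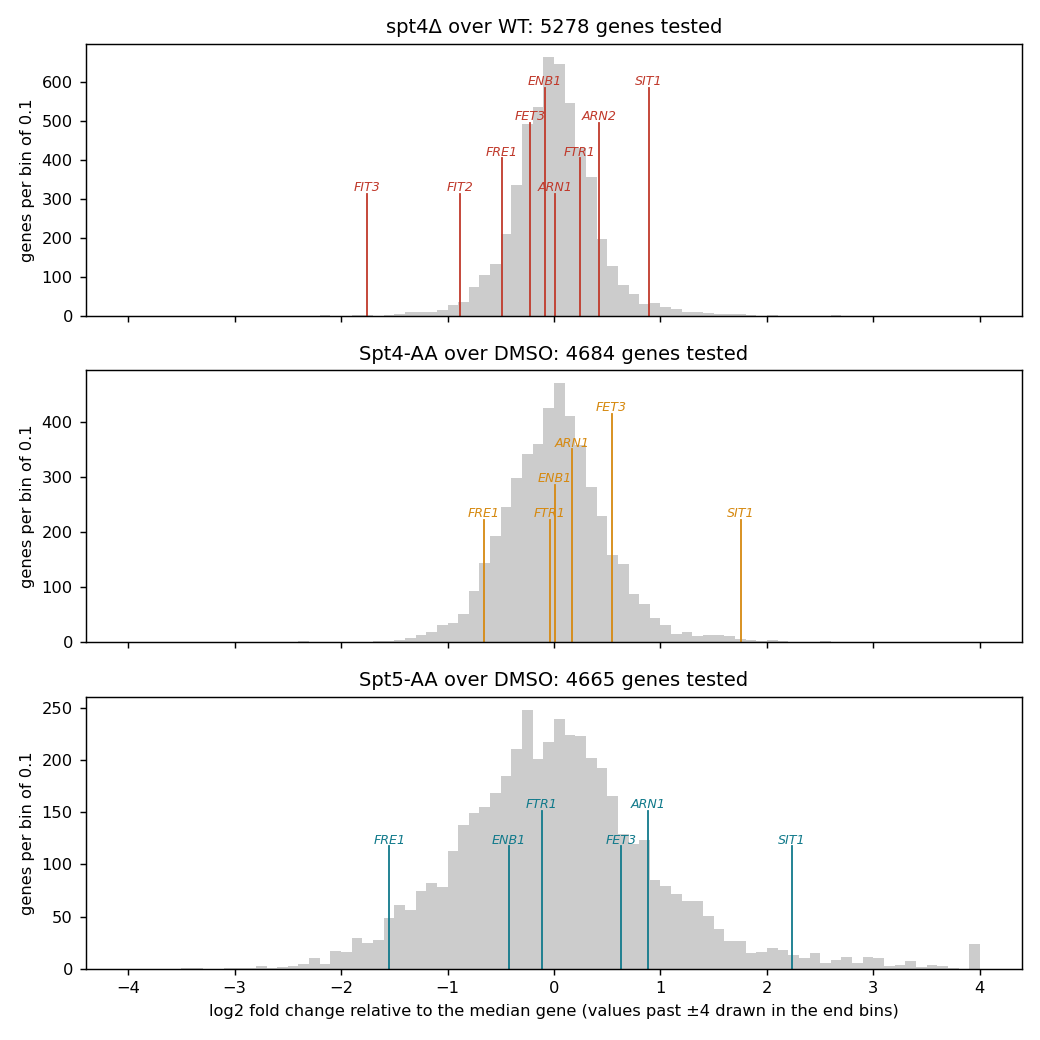
Histograms of the log2 fold changes of all genes tested in each comparison (bins of 0.1), with the iron uptake genes as vertical lines whose heights only separate the names. *SIT1* stood in the right tail in Spt4-AA (number 25 of 4684) and further inside a wider spread in Spt5-AA (number 134 of 4665), and *FIT3* in the left tail in *spt4Δ* (number 8 from the lowest of 5278) without passing the test.

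Per kilobase of coding length, *SIT1* had the highest mean of the 10 genes in *spt4Δ* cells, 994 ± 651 scaled counts per kb (SD, n = 2), from 1454 in replicate 1 and 534 in replicate 2, and each of the first 4 genes overlapped the next. In WT cells *FET3*, *FRE1* and *FTR1* led with 794 ± 86.6, 748 ± 121 and 726 ± 26.9 per kb, and neighbours in that order overlapped. *SIT1* (479 ± 101) and *ENB1* (474 ± 128) followed in WT and did not differ beyond their spread. *FIT2* (185 ± 56.0) and *ARN2* (184 ± 25.2) overlapped each other, and *ARN1* (106 ± 0.250), *FIT3* (61.0 ± 6.33) and *FIT1* (2.01 ± 0.576) came last without overlap. The median gene of the table had 224 per kb in WT, so *FET3*, *FRE1*, *FTR1*, *SIT1* and *ENB1* stood above the median there and the other 5 below it.

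The order also differed between depleted and DMSO cells. *SIT1* was number 2 of the 6 genes in Spt5-AA, with 243 ± 18.5 per kb (SD, n = 2), and number 5 in DMSO, with 51.5 ± 9.32 in the same table. *FRE1* was number 4 in Spt5-AA with 100.1 ± 7.89 and number 1 in DMSO with 293 ± 4.02. In Spt4-AA, *SIT1* was number 4 with 280.2 ± 96.7, overlapping *FRE1*, which was number 3 with 291 ± 9.85, while in DMSO of that table *FRE1* was number 1 with 459.6 ± 8.19 and *SIT1* number 5 with 80.8 ± 14.3. *ARN1* was last of the 6 genes in every group of both tables.

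Further genes of iron metabolism, 44 in 8 lists, were read off the same fits. In *spt4Δ* cells 43 were tested, 1 was higher (2.33%, beside 0.682% of all genes) and 0 lower (beside 0.36%) in limma (6 higher and 4 lower at an unadjusted p under 0.05, and 1 and 0 in edgeR and in DESeq2). It was *BIO2*, the iron-sulfur enzyme biotin synthase, with 2235 and 1525 scaled counts in *spt4Δ* and 825 and 733 in WT, a log2 fold change of 1.25 (adjusted p = 0.0484), which was called in 10 of 14 alternatives. The largest changes that did not pass were *CTR3*, a copper transporter (-2.37), *HMX1*, the heme oxygenase (1.19), and *SDH2*, the iron-sulfur subunit of succinate dehydrogenase (0.89). *CTR3* rested on few reads, 2 and 6 in *spt4Δ* and 19 and 11 in WT. Without *spt4Δ* replicate 1 there were 5 higher and 5 lower, and without replicate 2 there were 11 and 5. Without either WT library there were none.

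In Spt4-AA cells 37 were tested, 4 were higher (10.8%, beside 4.72% of all genes) and 0 lower (beside 4.23%) in limma (8 and 2 at an unadjusted p under 0.05, 5 and 0 in edgeR, and 4 and 0 in DESeq2). With the scaling as deposited 4 were higher and 4 lower, *FET4*, *ATX1*, *FRA1* and *FRE6*, and with the same total in every library 7 and 0. *BIO2* had 1626 and 1339 in Spt4-AA and 359 and 335 in DMSO, a log2 fold change of 2.08 that was called in all 12 alternatives. *SDH2* was at 1.54, from 60 and 78 reads in Spt4-AA and 13 and 24 in DMSO. *ACO1*, the iron-sulfur enzyme aconitase, was at 1.00 and *VHT1*, the biotin transporter, at 0.76 (adjusted p = 0.0421, called in 8 of 12 alternatives). *VHT1* lies next to *SPT4*, the gene tagged in both Spt4-AA libraries and in DMSO replicate 1 but not in DMSO replicate 2. *VHT1* had 127 and 128 scaled counts in Spt4-AA, 72.5 in DMSO replicate 1 and 77.7 in DMSO replicate 2. Whether the tag bears on these values was not tested. *TIS11* (1.54), whose product directs decay of messages for iron-using proteins, *CYC1* (0.97), cytochrome c, and *CCC2* (0.65), the copper pump that supplies Fet3, did not pass. Without either DMSO library fewer were called, all of them higher, with *BIO2* among them each time. Without either Spt4-AA library more were called, some higher and some lower.

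In Spt5-AA cells 36 were tested, 13 were higher and 7 lower relative to the median gene, where 26.2% of all genes were higher and 28.2% lower. With the scaling as deposited 2 were higher and 28 lower. The 4 genes of the iron sparing and heme breakdown list were all higher, *TIS11* at 2.04, *HMX1* at 1.82, *VHT1* at 1.43 and *CTH1*, a relative of *TIS11*, at 1.22, while with the scaling as deposited they stood at 0.27, 0.01, -0.40 and -0.60. Of the 7 iron-using enzymes tested, 5 were higher, *BIO2* at 3.25, *ACO1* at 2.93, *SDH2* at 1.79, *CYC1* at 1.54 and *LEU1*, of leucine synthesis, at 0.75, of which *SDH2* was at 0.01 and *CYC1* (-0.29) and *LEU1* (-1.11) turned with the scaling as deposited and *BIO2* (1.39) and *ACO1* (1.07) were still called higher. *RLI1*, an iron-sulfur protein of ribosome recycling, was lower at -2.07. *ACO1* had 2927 and 3019 scaled counts in Spt5-AA and 402 and 378 in DMSO, and *RLI1* had 85.1 and 85.9 in Spt5-AA and 387 and 338 in DMSO.

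Among the other lists in Spt5-AA, the reductase gene *FRE5* (1.72), the scaffold gene *ISU1* (1.06), *CCC2* (0.95) and the regulator gene *AFT2* (0.92) were higher, though all 4 were below 0 with the scaling as deposited (-0.06, -0.78, -0.88 and -0.91). *FET4*, the low-affinity iron transporter (-1.03), *ATX1*, the copper chaperone (-0.87), *GRX4*, a glutaredoxin that restrains Aft1 (-0.79), *CTR1*, a copper transporter (-0.69), *SMF2*, a metal transporter (-0.50), and *CCC1*, the vacuolar iron importer (-0.46), were lower. *AFT1* had 51.1 and 75.9 in Spt5-AA and 43.1 and 43.4 in DMSO, a log2 fold change of 0.52 that did not pass (adjusted p = 0.0762), and neither did *YAP5* (0.43) or *ISU2* (0.40). The calls of *SMF2* and *CCC1* were the less firm ones, made in 7 of 11 and 9 of 12 alternatives.

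**Figure D4:**
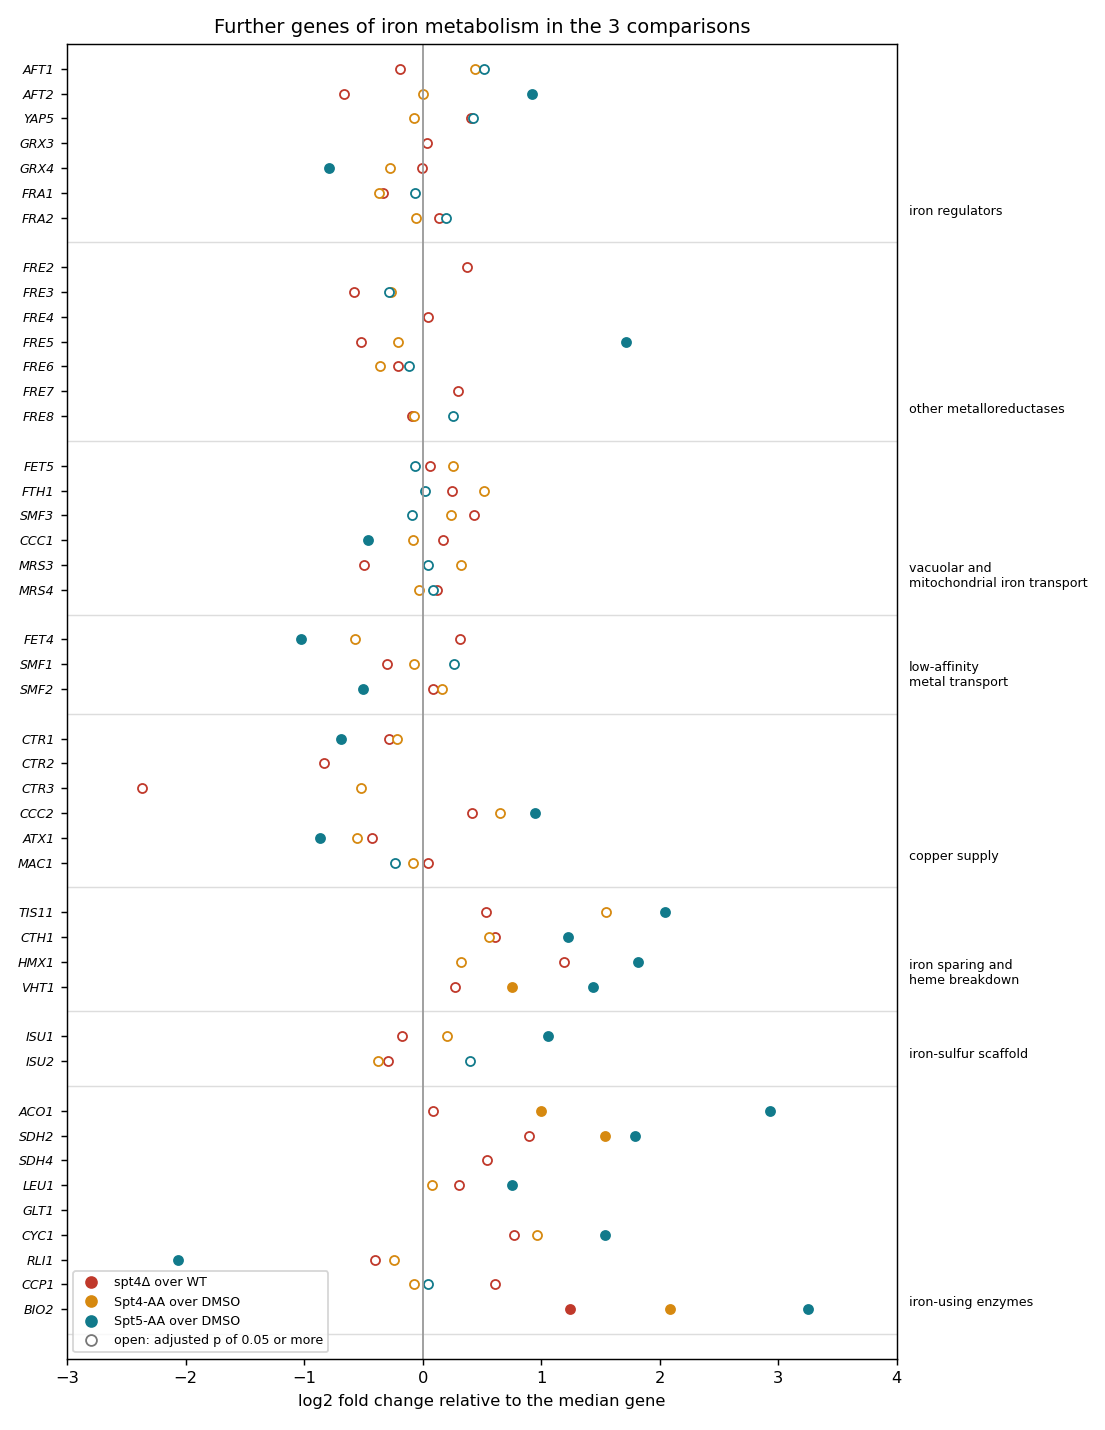
Log2 fold changes relative to the median gene of the 44 further genes of iron metabolism, grouped by list, for *spt4Δ* over WT, Spt4-AA over DMSO and Spt5-AA over DMSO. Filled points passed the limma test and genes not tested in a comparison have no point. *BIO2* was at 1.25, 2.08 and 3.25, and in Spt5-AA 13 were higher and 7 lower, or 2 and 28 with the scaling as deposited.

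Other genes with TGCACCC in the 500 bases before the start codon were counted beside the iron uptake genes. In *spt4Δ* cells 2 of 109 tested were higher and 0 lower, or 1.83% and 0%, beside 0.682% and 0.36% of all genes. In Spt4-AA cells 10 of 93 were higher and 2 lower, or 10.8% and 2.15%, beside 4.72% and 4.23% of all genes. In Spt5-AA cells 25 of 93 were higher and 23 lower, or 26.9% and 24.7%, beside 26.2% and 28.2% of all genes. Of other genes within 32 kb of a chromosome end, 4 of 228 were higher and 3 lower in *spt4Δ* (1.75% and 1.32%, beside 0.682% and 0.36% of all genes). In Spt4-AA 12 of 177 were higher and 10 lower (6.78% and 5.65%, beside 4.72% and 4.23%). In Spt5-AA 57 of 173 were higher and 37 lower (32.9% and 21.4%, beside 26.2% and 28.2%).

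The nearest listed genes on either side of the iron uptake genes were read off the same fits. None of 16 tested was called in *spt4Δ* and none of 12 in Spt4-AA. 3 of 12 were higher in Spt5-AA relative to the median gene, where 26.2% of all genes were. With the scaling as deposited the median gene shifted by -1.83 there, and the neighbours are not given with that scaling. *HPA3*, which ends 0.451 kb before *SIT1* on the same strand, was at 2.31 (limma adjusted p = 1.19e-08) in Spt5-AA, beside 2.24 for *SIT1*, and at 0.24 in Spt4-AA, beside 1.75 for *SIT1*. *AAC1*, next to *FET3* on the opposite strand, was at 1.27 in Spt5-AA, and *GRE2*, 22.4 kb from *ENB1*, at 2.73. Whether reads of *HPA3* extend into *SIT1* was not tested, since the tables hold 1 value per gene.

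The mean of the 6 genes measured in all 3 tables was compared with 4628 other genes over 12 columns, the 10 libraries with the DMSO pair counted in both tables. The genes most alike by Pearson's r were *VPS5* (0.960), *TOH1* (0.931), *RSM7* (0.920), *TEM1* (0.912) and *TVP18* (0.910). Each of them had log2 fold changes between 0.10 and 0.52 in the 3 comparisons, far smaller than those of *SIT1*. The 6 genes are themselves part of the mean, so a gene with large changes, such as *SIT1*, resembles it by construction. Their own r with it was 0.810 for *SIT1*, 0.648 for *FET3*, 0.595 for *FTR1*, 0.550 for *ARN1*, 0.497 for *ENB1* and -0.228 for *FRE1*. These values describe libraries that share their controls.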

How the data were processed

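RNA-seq libraries of WT, *spt4Δ*, Spt4-AA, Spt5-AA and DMSO-treated cells (10 of 46 samples) were used, grouped by the labels. Total RNA was depleted of ribosomal RNA and made into directional libraries, with *S. pombe* cells as spike-in. Per the labels, Trim Galore, TopHat, DESeq2 and the builds R64, sacCer3 and ASM294v2 were named for the study, while the counter and its strand setting are not given in the sources used here, so that reads of a gene and of an antisense transcript may not be separated.

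The authors deposited 3 tables of normalized counts per gene, a signal in which the read counts of each library had been divided by 1 factor. The source of these factors is not given in the sources used here, so whether values with the scaling as deposited measure change per cell is not known. The factors did not bring the median yeast gene to 1 level in all libraries. It stood at 2.16 in *spt4Δ* replicate 1 against 0.750 in WT replicate 1, and at 0.499 in Spt5-AA replicate 1 against 1.86 in DMSO replicate 1. Whole reads were recovered from 100% of values (tolerance 0.01). 3 deposited tables of the authors' own DESeq2 fold changes and p-values were not used, and 0 columns of per-library values were left out. Of 5572, 4835 and 4835 genes listed, 255, 119 and 119 were not found in the annotation.

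Each library was rescaled to a median ratio of 1 to the geometric mean of its table. The trended fit of limma (version 3.58.1, in R 4.3.3) was run on log2(scaled count + 1), which understates the change of low genes, for genes with a mean of at least 10, two-sided, with Benjamini-Hochberg adjustment over all genes and a threshold of 0.05. Tables were fitted separately. Alternatives were pseudocounts of 0.1 and 10, filters of none or of a mean of 100, the scaling as deposited, the same total in every library, edgeR (version 4.0.16, quasi-likelihood with TMM), DESeq2 (version 1.42.0), a replicate block and each library left out. The fit was first tested on simulated counts with known changes, drawn with the same small spread between libraries for every gene. That test does not show how the fit behaves where replicates differ as the *spt4Δ* libraries did. Similar genes were searched with BLAST+ (version 2.17.0), and sequences came from RefSeq R64. Other steps used Python 3.11.15.

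All members are named. Further iron genes are named where called, with up to 3 of the largest changes not called, as are called neighbours and the 5 genes most alike in pattern. The members, the lists and the distance of 32 kb were chosen with earlier results of these data known.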

Additional observations from a re-analysis of the deposited data

Results flagged for a closer look

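*FET3* is given because its libraries lay on different sides of their controls. Its log2 fold change was -0.22 in *spt4Δ* over WT (not called, adjusted p = 0.813 from limma), with both mutant libraries below both WT libraries, and 0.54 in Spt4-AA (not called, adjusted p = 0.112) and 0.63 in Spt5-AA (called) over DMSO, with both depleted libraries above both DMSO libraries. The change in *spt4Δ* was lower than that in Spt4-AA by a difference of -0.77 and lower than that in Spt5-AA by a difference of -0.86 on the log2 scale. With the scaling as deposited the changes were 0.62 in *spt4Δ* and -1.22 in Spt5-AA, so that both signs turned. The tables were normalized separately and these differences were not tested. The strains, the treatments and the time without the factor differed as well and cannot be told apart.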

How the results depend on the processing

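Results kept their direction and side of the threshold in 228 of the values recomputed for single iron uptake genes, while 19 reversed, 12 passed the threshold anew and 7 no longer passed. *SIT1* was called in all alternatives of both depletions, and *FRE1* and, with its sign reversed once, *FET3* and *ARN1* in all of Spt5-AA. With the scaling as deposited the median of all genes moved to 0.83 in *spt4Δ*, -0.28 in Spt4-AA and -1.83 in Spt5-AA. The genes called were then 16, 1022 and 4333 of all (main 55, 419 and 2538), the further iron genes called 0, 8 and 30, the median iron uptake gene 0.76 in *spt4Δ* and -1.60 in Spt5-AA. Reversed values were *FET3* 0.62, *ENB1* 0.76 and *FRE1* 0.35 in *spt4Δ*, *ARN1* -0.12 and *ENB1* -0.28 in Spt4-AA, and *FET3* -1.22 and *ARN1* -0.95 in Spt5-AA. With the same total in every library 14 genes were called in *spt4Δ* and 671 in Spt4-AA, with 7 further iron genes there, and *FTR1* of Spt4-AA was at 0.093. A mean of at least 100 left 1622 genes called in Spt5-AA, 10 further iron genes there and 0 in *spt4Δ*, and a median of -0.12 because *ARN1* was no longer tested. DESeq2 called 108 genes in *spt4Δ*.

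The deviations of *spt4Δ* replicate 1 and WT replicate 1 from their group means had a Pearson r of -0.26 over 5278 genes. With 2 libraries in each group those of replicate 2 mirror them, so this value cannot show whether replicate numbers paired the libraries. A replicate block called 90 genes and no iron uptake gene, and the crossed pairing, added after seeing the data, called 267 genes, 2 iron uptake genes and 5 further iron genes.

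Leaving out 1 library assumes that the lone library varies like the other group. Genes called then ranged from 16 to 1586 in *spt4Δ*, 89 to 1650 in Spt4-AA and 1889 to 2731 in Spt5-AA, iron uptake genes called from 0 to 5, 1 to 3 and 4 to 5, their median from -0.32 to 0.10, -0.19 to 0.41 and 0.15 to 0.37, and further iron genes called from 0 to 16, 1 to 14 and 18 to 21. Signs turned in *spt4Δ* for *FTR1* (-0.25 to 0.73), *ARN1* (-0.017 to 0.043), *ENB1* (-0.48 to 0.31) and *FRE1* (-1.08 to 0.10), in Spt4-AA for *FTR1* (-0.23 to 0.15), *ARN1* (-0.15 to 0.49) and *ENB1* (-0.31 to 0.33), and in Spt5-AA for *FTR1* (-0.27 to 0.042). The causes were not tested. With 2 libraries in each group, changes of low genes such as *FIT1* and *FIT3* were limited by depth.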
